A study of Equus caballus with 19 samples.

Results

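The comparison described here is that of IL-1β alone with IL-1β plus its receptor antagonist IL1Ra, in 3 lines of equine tenocytes (lines 6, 7 and 8). Each line gave 1 library per condition, so 6 of the 19 libraries of the series belong to the comparison, 3 with IL-1β and 3 with IL-1β + IL1Ra, paired by line. The untreated control library of each line is the background, and all 9 libraries belong to the second batch. Tenocytes, the resident fibroblast-like cells of tendon, were grown out of the superficial digital flexor tendon of adult wild-type Thoroughbreds post-mortem. All conditions shared the same culture, a gel of bovine type I collagen in medium with fetal bovine serum, for 14 days. IL-1β was given at 1 nM and IL1Ra at 100 ng/ml, for the whole gel culture, with fresh medium at intervals. A library is 1 donor line in 1 condition, so an SD given here is the spread between lines. Expanded cells in a collagen gel are a limited model of tendon. The question was which processes of the IL-1β response are moved by the antagonist.

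IL-1β binds a receptor that recruits MYD88 and the IRAK kinases, and these free NF-κB from its inhibitors so that it switches on chemokines, cytokines and matrix-degrading enzymes. IL1Ra occupies the same receptor without signalling and is the natural brake on the pathway. In tendon, IL-1β is known as a driver of inflammation and of loss of matrix gene expression.

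Of 29196 gene names in the table, 16705 had at least 10 normalised counts in at least 3 of the 9 libraries and were tested. Values are normalised counts, which are a gene's estimated read counts scaled by DESeq2 to make libraries comparable, and a log2-fold change is IL-1β + IL1Ra minus IL-1β on the log2(normalised count + 1) scale, so that a negative value is a lower level with IL1Ra. That scale understates changes of genes with low counts. A gene was DE when its adjusted p (limma with the line as a block, Benjamini-Hochberg over all genes tested) was under 0.05 and its log2-fold change at least 1 in size. Standard errors are those of the limma fit to all 9 libraries, so scatter of the control libraries enters them. They are not the spread of the line differences of IL-1β + IL1Ra and IL-1β. Sums of the normalised counts of a library were 24964149 to 28652335 in control, 27722145 to 34602014 with IL-1β and 26699718 to 29958413 with IL-1β + IL1Ra. Triplets of values are given for lines 6, 7 and 8 in that order throughout.

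The labelled cell type was checked on 15 tenocyte and fibroblast markers, of which 13 were tested. General fibroblast markers were high in every library, and COL1A1, a collagen chain of fibroblasts and tendon, had 84945, 97816 and 131132 normalised counts with IL-1β. Markers more particular to tendon were low or absent in some lines. TNMD, tenomodulin, was at 0 in 8 of the 9 libraries and at 1.00 in the other. THBS4, a thrombospondin of tendon, had 632, 14.1 and 16.4 in control, 123, 1.11 and 13.8 with IL-1β and 506, 6.74 and 8.51 with IL1Ra. The tendon transcription factor SCX was at 4720.0, 266 and 105 in control, 278, 43.5 and 13.6 with IL-1β and 1523, 30.2 and 10.5 with IL1Ra, so in lines 7 and 8 SCX and THBS4 were far below line 6 in all 3 conditions. Of 18 leukocyte markers 7 were tested, CD3D, AIF1 and CD79A were at 0 in all 9 libraries, and PTPRC, the leukocyte common antigen, did not exceed 6.46 normalised counts. The summed level of the leukocyte markers was 639 to 1706 normalised counts in control, 1105 to 3627 with IL-1β and 1133 to 2655 with IL1Ra. Of 9 endothelial markers 4 were tested, and the summed level of the 9 was 610.3 to 1103 in control, 112 to 130.2 with IL-1β and 231 to 355 with IL1Ra. Most of the sum in control was ERG alone, with 1018, 600 and 497. ERG had 53.1, 45.9 and 54.3 with IL-1β and 300, 30.0 and 137 with IL1Ra. EMCN had 37.9, 40.6 and 38.5 with IL-1β and 20.7, 191 and 74.0 with IL1Ra, against the direction of ERG in lines 6 and 7. CDH5, KDR and TIE1 did not exceed 4.68 in any library. Of the adipocyte markers, ADIPOQ had 43.1, 6067 and 493 in control, 123, 1666 and 239 with IL-1β and 62.8, 1720 and 1014 with IL1Ra. LPL was at 0 in line 6 and reached 3768 in line 8 with IL-1β. Of the skeletal muscle markers, ACTA1 had 25.7, 0 and 209 and TNNT3 0, 0 and 135 in control, while MYH1 and MYH2 were at 0 in all 9 libraries. Of 6 epithelial markers only CDH1 was tested, at 107, 62.0 and 10.3 in control. The part of these markers in the results was not tested. In bulk libraries, fewer cells of a type and less RNA per cell cannot be told apart.

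FGF10 was the only gene that passed the test, and it rose with IL1Ra. It encodes a secreted fibroblast growth factor that acts on epithelia and is made by mesenchymal cells. Its level was 1063, 7002 and 7961 normalised counts in control, 114, 559 and 496 with IL-1β and 595, 2867 and 2852 with IL-1β + IL1Ra. In each line the library with IL1Ra lay between the other conditions, and the lowest value with IL1Ra was above the highest with IL-1β. The means were 389.7 ± 241 with IL-1β and 2105 ± 1307 with IL1Ra (SD, n = 3 lines), which is 2.42 ± 0.18 (standard error) on the log2 scale with an adjusted p of 0.0336 from limma, with line differences of 2.38, 2.36 and 2.52. Without line 7 its adjusted p was 0.575 and without line 8 it was 0.798, while without line 6 it was 0.0140 (limma). It was 0.0709 in the 6 libraries of the comparison alone, 0.0597 with libraries rescaled to equal sums, 0.0553 after quantile normalisation, 0.131 without the trend and 0.9999 without the block.

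A single gene is 0.00599% of the genes tested. At the same thresholds the study reported more DE genes for this comparison, from DESeq2, and more of them lower than higher with IL1Ra. Its counts in the comparisons with control also differ from those given here. The methods were not compared. No gene was DE in the direction of lower expression, and 1400 genes (8.38%) had an unadjusted p under 0.05, 786 of them higher (4.71%) and 614 lower with IL1Ra (3.68%). In the comparisons with control, which share these libraries, 865 genes (5.18%) were DE with IL-1β alone and 42 (0.251%) with IL-1β + IL1Ra. The next smallest adjusted p was 0.0699, shared by 3 genes that were picked out after their values were seen. MST1R, the receptor for macrophage-stimulating protein, had 177, 397 and 371 normalised counts in control, 45.1, 48.8 and 58.9 with IL-1β and 345, 439 and 382 with IL1Ra, a log2-fold change of 2.91 (standard error 0.27). MEOX1, a homeobox transcription factor, was at 872, 519 and 287 in control, 131, 22.3 and 29.8 with IL-1β and 1063, 277 and 348 with IL1Ra (3.37, standard error 0.34). In both, all libraries with IL1Ra were above all libraries with IL-1β. A2ML1, a broad protease inhibitor, had 49.3, 1.80 and 3.45 in control, 2777, 562 and 261 with IL-1β and 156, 8.79 and 18.3 with IL1Ra (−4.58, standard error 0.46), and all its libraries with IL1Ra were below all with IL-1β. With a pseudocount of 5 in place of 1, A2ML1 was also DE (adjusted p = 0.0478, limma).

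Since so little passed the test, the remaining values are descriptions, and no gene other than FGF10 was DE with IL1Ra against IL-1β in the fit to all 3 lines. The shares of all genes tested are the background of every gene list. In 3 of 3 lines 15.6% were higher and 16.8% lower with IL1Ra. In 3.12% all libraries with IL1Ra lay above all with IL-1β, while in 3.35% all lay below. The library with IL1Ra lay between the other conditions in 3 of 3 lines in 10.8% of genes, above both in 3.66% and below both in 2.77%. The IL-1β libraries are shared with the comparison of IL-1β against control, so values against control are not independent of those with IL1Ra against IL-1β.

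**Figure D1:**
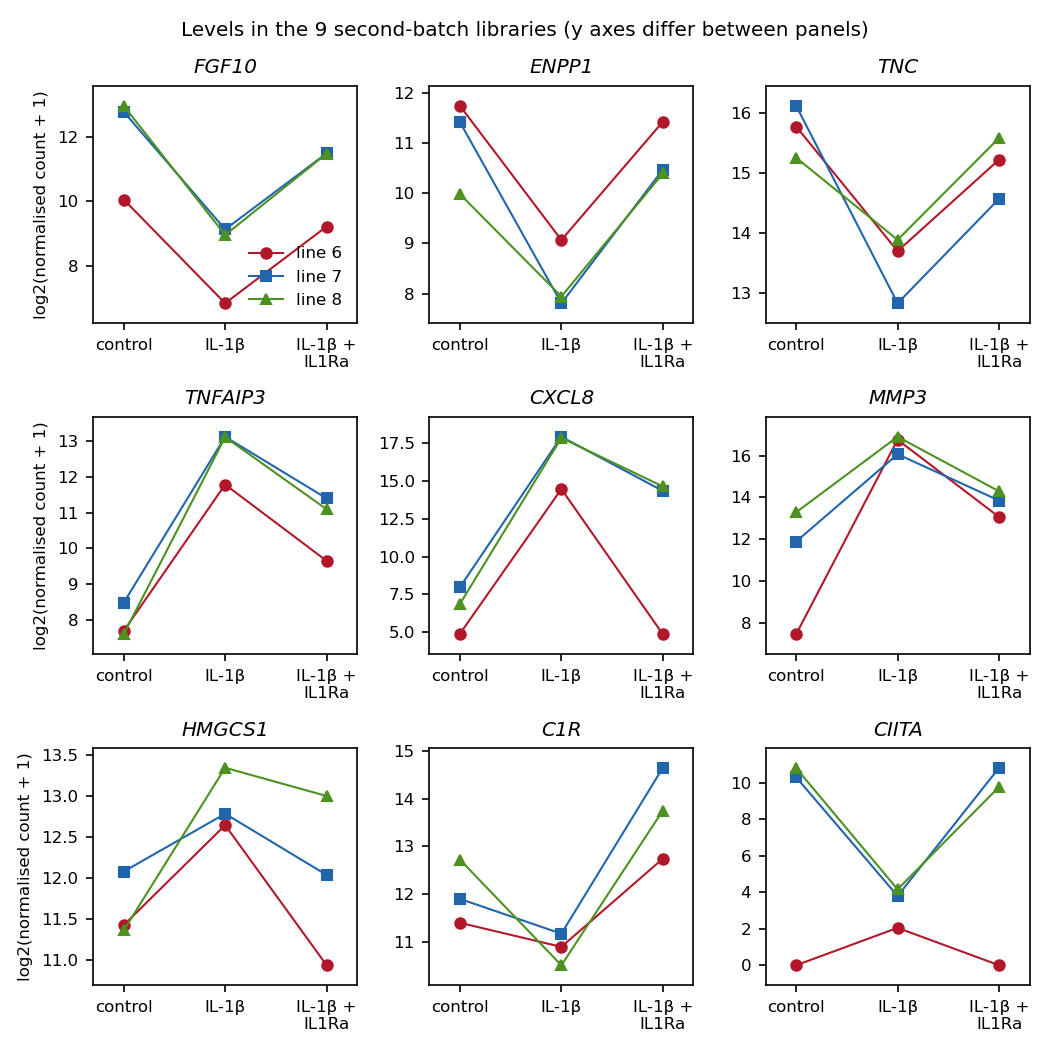
Levels of 9 genes as log2(normalised count + 1) in control, IL-1β and IL-1β + IL1Ra, with 1 point per library and a connecting line per tenocyte line. With IL1Ra, FGF10, ENPP1, TNC and C1R were above and TNFAIP3, CXCL8, MMP3 and HMGCS1 below IL-1β alone in 3 of 3 lines, while CIITA was above it in lines 7 and 8 and at 0 in line 6.

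The genes that IL-1β changes were defined on lines 1 to 5, whose 10 libraries were normalised separately and share no library with lines 6 to 8. There, 863 of the 14478 genes tested in both batches were DE and higher with IL-1β. With IL1Ra the median of their log2 differences was −0.91, −0.37 and −0.33 in lines 6, 7 and 8, and 416 of them (48.2%) were lower in 3 of 3 lines against 19 higher. Of the 1445 genes DE and lower with IL-1β, 546 (37.8%) were higher with IL1Ra in 3 of 3 lines and 26 lower, with medians of 0.98, 0.039 and 0.45. Over all 14478 genes 18.4% were lower and 15.3% higher in 3 of 3 lines, with medians of 0.022, −0.089 and −0.013. The medians with IL1Ra were thus opposite in sign to the IL-1β response in every line, but their size was unequal, and in line 7 the genes lowered by IL-1β had a median near 0.

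In line 6 the medians were graded with the first-batch change. The 92 genes with a first-batch log2-fold change of 4 or over had medians of −2.78, −1.26 and −1.26, and the 6256 genes between 0 and 1 had −0.13, −0.13 and −0.080. On the other side, the 88 genes under −4 had medians of 2.69, 0.42 and 0.32 and the 1045 genes between −2 and −1 had 0.79, 0 and 0.40. Between these, the 121 genes from −4 to −3 had 2.00, 0.49 and 0.72 and the 318 genes from −3 to −2 1.29, 0.091 and 0.60, so in lines 7 and 8 the most strongly lowered genes did not have the highest median. On the raised side line 8 was also out of order, with −0.22 for the 621 genes from 1 to 2 and −0.17 for the 180 genes from 2 to 3. Across the 14478 genes, which are not independent replicates, Pearson correlations of the first-batch change with the difference in a line were −0.70 in line 6, −0.16 in line 7 and −0.28 in line 8. The points of a line share its pair of libraries, and the correlation was strongest in line 6.

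**Figure D2:**
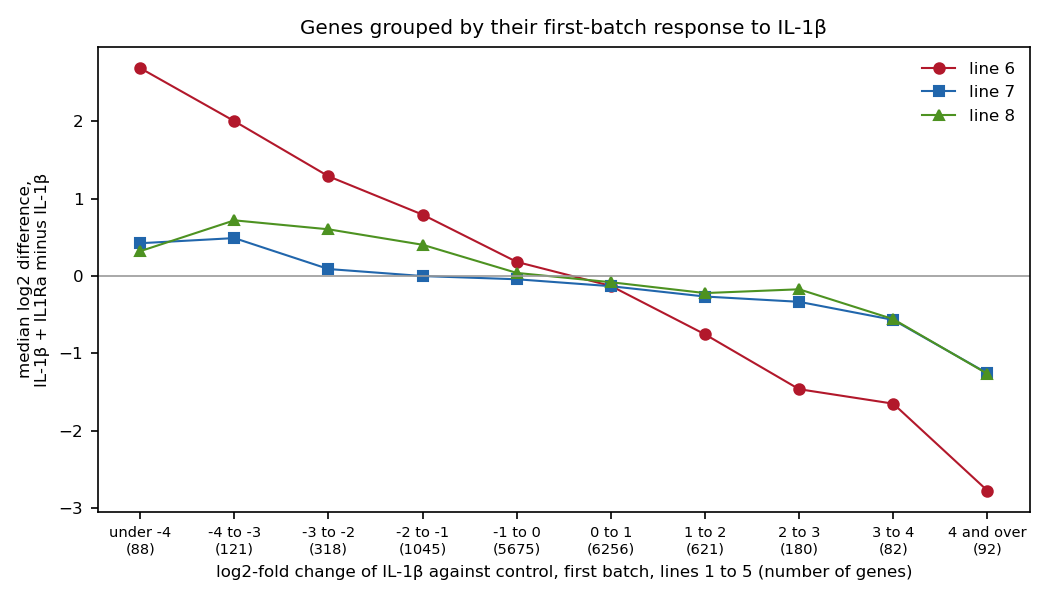
Median log2 difference between IL-1β + IL1Ra and IL-1β in lines 6, 7 and 8 (y axis) over genes grouped by their log2-fold change with IL-1β in lines 1 to 5 (x axis, with the number of genes in each group). Line 6 runs from 2.69 to −2.78, whereas lines 7 and 8 stay between 0.72 and −1.26.

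Some genes went against this. CHI3L1, a secreted chitinase-like glycoprotein of inflamed joints, was DE and higher with IL-1β in the first batch and was higher again with IL1Ra in 3 of 3 lines, with 525, 124 and 109 normalised counts with IL-1β and 1796, 2291 and 781 with IL1Ra (log2-fold change 2.93). ADAMTS15, a proteoglycan-cleaving protease, was DE and lower in the first batch and had 46.3, 25.4 and 46.5 with IL-1β and 9.88, 0 and 3.17 with IL1Ra (−3.45). Their groups did not overlap. Both were picked out after their values were seen.

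The 23 gene lists differed in how far and how evenly they moved. Cholesterol and fatty acid synthesis and NF-κB feedback had the largest shares of members lower with IL1Ra in 3 of 3 lines, nucleotide pyrophosphatases and growth factors the largest shares higher, and interferon-stimulated genes were split by line. The plot of list medians shows these beside the median of all genes, which was 0.0088.

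**Figure D3:**
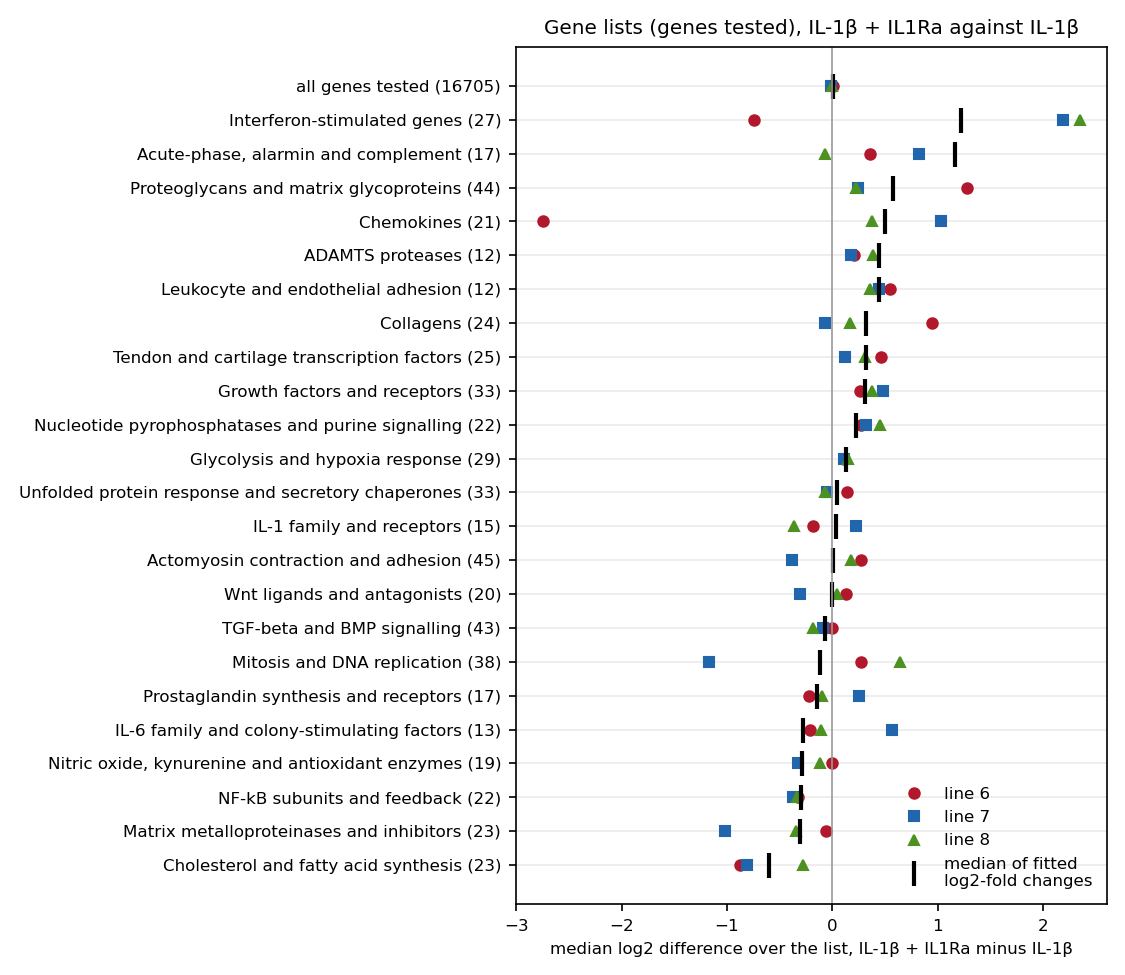
Median log2 difference between IL-1β + IL1Ra and IL-1β over each gene list (x axis), for lines 6, 7 and 8 as coloured symbols and as a black bar for the median of the fitted log2-fold changes, with the number of genes tested in brackets. The cholesterol list and the NF-κB list are below 0 in all 3 lines, and the interferon-stimulated genes are at −0.74 in line 6 and above 2 in lines 7 and 8.

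Among the 15 tested genes of the IL-1 family, the cytokines themselves were lower with IL1Ra in 3 of 3 lines. IL1A had 47.8, 1329.8 and 1422 normalised counts with IL-1β and 0, 81.3 and 136 with IL1Ra (log2-fold change −4.33, standard error 1.44). IL1B had 36.4, 77.5 and 91.8 with IL-1β and 2.93, 48.4 and 12.9 with IL1Ra (−2.22, standard error 0.92), and both genes had at most 2.01 in any control library. Line 6 had the lowest values of both genes with IL1Ra, at or under 2.93. IL1R1, the signalling receptor, stood at 0.018, its co-receptor IL1RAP at −0.20, the decoy receptor IL1R2 at 0.56 and the adaptor kinase IRAK1 at 0.23, and none of these 4 moved the same way in all lines. SIGIRR, a receptor that dampens IL-1 signals, was higher with 111, 116 and 121 against 229, 168 and 194, without overlap (0.75). IL1RN, the gene of the antagonist itself, did not pass the filter, with at most 2.15 normalised counts in any library. The list as a whole had a median of 0.038, with 2 members higher (13.3% against 15.6% of all genes) and 3 lower (20% against 16.8%) in 3 of 3 lines.

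Of 22 NF-κB subunits and genes of its negative feedback, 10 were lower in 3 of 3 lines (45.5% against 16.8% of all genes). Higher in 3 of 3 lines were 3 (13.6% against 15.6%). In 6 of the 22 all libraries with IL1Ra lay below all with IL-1β, against 3.35% of all genes. The list median was −0.30, and the line medians of −0.33, −0.37 and −0.33 were alike. TNFAIP3, which encodes the ubiquitin-editing inhibitor A20, had 206, 356 and 193 normalised counts in control, 3539, 8949 and 8889 with IL-1β and 804, 2706 and 2190.1 with IL1Ra. All values with IL1Ra were below all with IL-1β and above all in control, and the difference was −1.96 ± 0.29 (standard error) on the log2 scale, with an adjusted p of 0.152 (limma). The inhibitor NFKBIA had 6533, 6377 and 5313 with IL-1β and 3708, 3704 and 3303 with IL1Ra (−0.76), and the precursor subunit NFKB1 4861, 5714 and 6739.8 with IL-1β and 2379, 4293 and 4310.1 with IL1Ra (−0.70), again without overlap. NFKB2 was at −0.90, the kinase IKBKE at −0.80 and RELB at −0.34, each lower in 3 of 3 lines. RELA, the p65 subunit, had 3247, 5189.9 and 3421 with IL-1β and 3228, 4389.5 and 3614 with IL1Ra normalised counts, a log2-fold change of −0.057 (standard error 0.14) whose sign turned with libraries rescaled to equal sums. The 2 members with the highest counts, the apoptosis inhibitor BIRC3 (0.20, line differences −1.34, 1.98 and −0.051) and the A20-binding protein TNIP1 (−0.29, 0.080, −0.79 and −0.17), did not move the same way in all lines. TRAF1 was higher in 3 of 3 lines, with 1481, 1426 and 1676 with IL-1β and 2176, 2172 and 2079 with IL1Ra (0.49).

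The 21 chemokines tested did not move as one. The neutrophil-attracting chemokines and CCL20, 6 genes in all, were lower with IL1Ra in 3 of 3 lines. CXCL8 had 28.4, 249.5 and 115 normalised counts in control, 22788, 252466 and 239411 with IL-1β and 27.8, 20896 and 25689 with IL1Ra, a log2-fold change of −5.48 (standard error 1.37). In line 6 the level with IL1Ra was near that of control, whereas in lines 7 and 8 it stayed far above control, so that the groups overlapped between lines. CXCL6, the most abundant of the list, had 371137, 1096922 and 1319460.2 with IL-1β and 9204, 269776 and 461348 with IL1Ra (−2.96). CXCL1 (−3.56), CXCL2 (−4.53), MIP-2BETA (−3.83) and CCL20 (−2.98) had no overlap between the groups. CXCL1, CXCL2, CXCL6 and MIP-2BETA are close relatives between which reads could be divided, so their single values are uncertain.

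A different set of 5 genes was higher in 3 of 3 lines. CCL13, a monocyte and eosinophil attractant, had 36.3, 160.2 and 586 normalised counts in control, 7.07, 8.89 and 4.35 with IL-1β and 41.2, 54.8 and 151 with IL1Ra (3.24). CCL19, which guides lymphocytes and dendritic cells, had 27.6, 69.7 and 14.8 in control, 0, 22.1 and 1.07 with IL-1β and 20.7, 214 and 90.1 with IL1Ra (4.37), and CCL26 was at 1.50. The others were CXCL16 and CX3CL1. The chemokines that interferon-γ induces were split by line. CXCL10 had 2.07, 23285 and 36860.1 normalised counts in control, 404, 5835 and 2199.7 with IL-1β and 3.81, 137905 and 43272 with IL1Ra, with differences of −6.40, 4.56 and 4.30, and CXCL9 had 0, 16528 and 27223 in control, 102, 6507 and 4257 with IL-1β and 0, 476959 and 96606 with IL1Ra, with differences of −6.68, 6.20 and 4.50. Line 6 was lower with IL1Ra in both genes, and lines 7 and 8 were higher than with IL-1β and than in control. CCL2, which attracts monocytes, was at −0.53 with differences of −1.73, 0.18 and −0.044. Over the list 5 genes were higher (23.8% against 15.6% of all genes) and 6 lower (28.6% against 16.8%) in 3 of 3 lines.

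**Figure D4:**
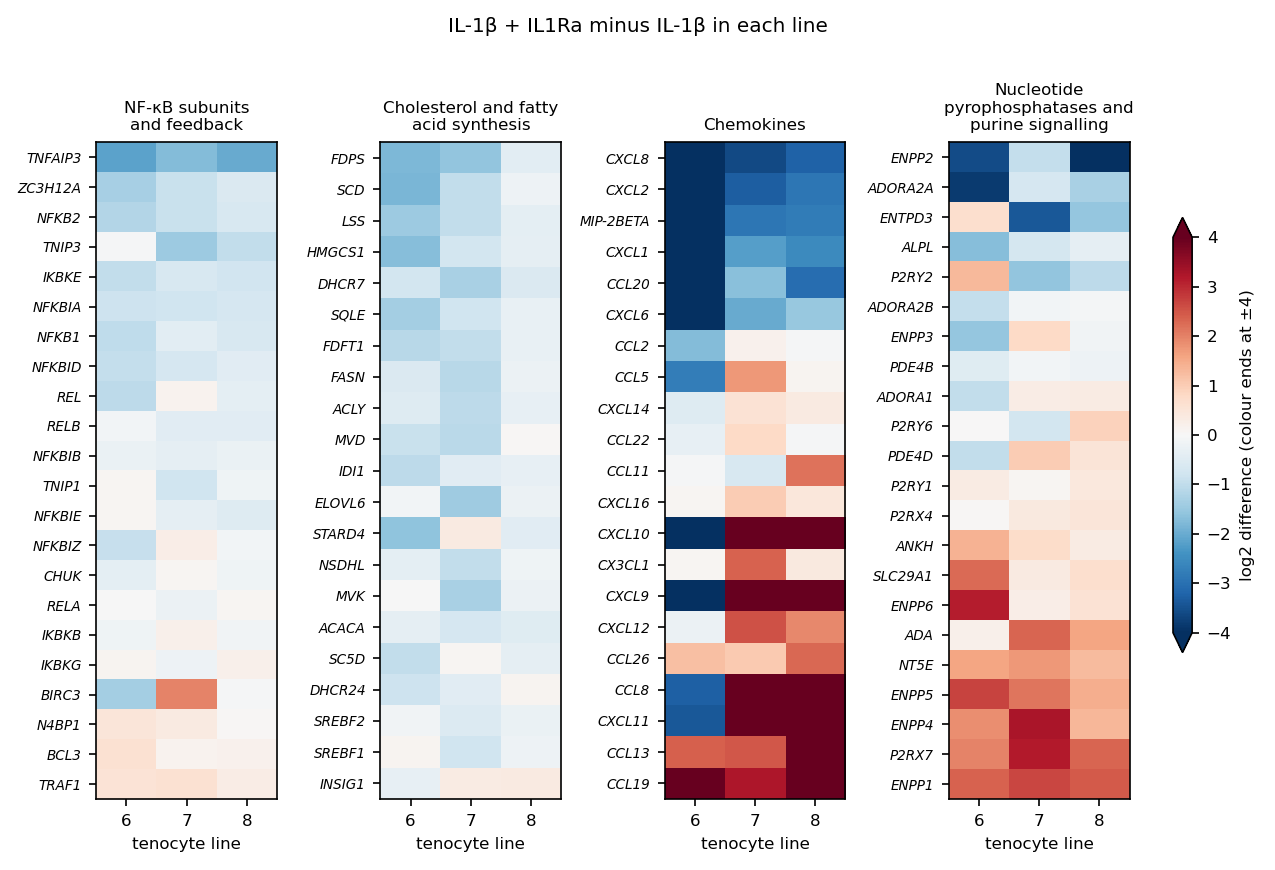
Log2 difference between IL-1β + IL1Ra and IL-1β in lines 6, 7 and 8 (columns) for tested members (rows) of 4 gene lists, with blue for lower and red for higher with IL1Ra and colours ending at ±4. The NF-κB and cholesterol lists are mostly blue in all columns, the chemokines hold a blue, a red and a line-dependent block, and the nucleotide list runs from ENPP2 at −2.96 to ENPP1 at 2.49.

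Of the 13 tested genes of the IL-6 family and colony-stimulating factors, 5 were lower and 5 higher in 3 of 3 lines. Each is 38.5% of the list, against 16.8% lower and 15.6% higher of all genes. CSF3, which drives neutrophil production, had 28.2, 39.7 and 76.9 normalised counts in control, 19694, 330466 and 221118 with IL-1β and 197, 112805 and 71213 with IL1Ra (−3.27, standard error 1.42). LIF was at −1.59, CSF2 at −2.38 and IL11 at −1.02. IL6 had 127, 663 and 216 in control, 168090.2, 136543 and 137101 with IL-1β and 13776, 201719.5 and 119246 with IL1Ra (−1.08, standard error 0.72), with line differences of −3.61, 0.56 and −0.20, so line 6 was lower with IL1Ra while line 7 was higher and line 8 differed little. Without line 6 the log2-fold change of IL6 was 0.18. On the side of the receptors, OSMR, the receptor for oncostatin M, had 2939, 1517 and 1872 with IL-1β and 6336, 4871 and 3607 with IL1Ra (1.25, standard error 0.20). CSF1, a macrophage growth factor (1.05), and the signal transducer STAT3 (0.79) were also higher, and in all 3 genes the groups did not overlap.

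In prostaglandin synthesis, PTGS2, the inducible cyclooxygenase, had 69.2, 2655 and 13856 normalised counts in control, 25408, 51595 and 76823 with IL-1β and 443, 86103 and 88355 with IL1Ra. Only line 6 was lower with IL1Ra, with line differences of −5.84, 0.74 and 0.20, and the log2-fold change of −1.63 (standard error 1.23) was 0.47 without line 6. PTGES, the terminal prostaglandin E synthase, was at −0.063. PTGER4, a receptor for prostaglandin E, was lower without overlap, with 987, 1674 and 1921 with IL-1β and 291, 823 and 671 with IL1Ra (−1.43), and PTGIS, the prostacyclin synthase, was higher with 177, 23.1 and 3.17 with IL-1β and 672, 47.3 and 36.8 with IL1Ra (2.03). The list of 17 genes had 2 members higher (11.8% against 15.6% of all genes) and 5 lower (29.4% against 16.8%) in 3 of 3 lines, with a median of −0.14. NOS2, the inducible nitric oxide synthase, showed the same split as PTGS2, with 9845, 4131 and 6317 with IL-1β and 516, 14791 and 11241 with IL1Ra (−4.25, 1.84 and 0.83 by line). In its list of 19 genes of nitric oxide, kynurenine and antioxidant metabolism, 4 were lower (21.1% against 16.8% of all genes) and 2 higher (10.5% against 15.6%) in 3 of 3 lines. The thioredoxin reductase TXNRD1 (13811, 16177 and 9519 with IL-1β and 3483, 11767 and 6484 with IL1Ra) and the peroxiredoxin PRDX1 (log2-fold change −0.77) were among the lower ones, and the superoxide dismutase SOD2 was at 0.30 with differences of 0.23, 0.75 and −0.065.

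Acute-phase genes and complement moved apart. SAA1, the acute-phase serum amyloid, had 4617, 769 and 579 normalised counts in control, 337738, 128575 and 277600.1 with IL-1β and 125855, 54973 and 39747 with IL1Ra (−1.82, standard error 0.49), and the alarmin S100A12 had 854, 2431 and 2328 with IL-1β and 276, 624 and 379 with IL1Ra (−2.07). Both were lower without overlap and still above control in 3 of 3 lines. Components of the classical and alternative pathways were higher. C1R, a protease that starts the classical pathway, had 2704, 3826 and 6754 in control, 1907, 2309 and 1460.5 with IL-1β and 6853, 25599 and 13767 with IL1Ra (2.85, standard error 0.41, adjusted p = 0.140, limma). C1S had 9924, 11519 and 3589 with IL-1β and 19634, 52019 and 28909 with IL1Ra (2.06) and CFB, the factor B of the alternative pathway, 187, 258 and 465 with IL-1β and 1849, 1195 and 845 with IL1Ra (2.12). In these 3 genes the groups did not overlap, and each library with IL1Ra also exceeded the control of its line. SERPING1, the inhibitor of C1R and C1S, had 1756, 8082 and 4964 with IL-1β and 6828, 77126 and 27839.9 with IL1Ra (2.57), and C2 had 109, 541 and 215 with IL-1β and 141, 5582 and 2545 with IL1Ra (2.43). Of 17 genes tested, 5 were above both other conditions in 3 of 3 lines, against 3.66% of all genes.

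The interferon-stimulated genes, which mark a response to interferon, were higher with IL1Ra in lines 7 and 8 for 27 of 27 genes, against 30% of all genes. They were lower in both lines for 0, against 31.8% of all genes. In line 6 the median difference was negative, and the line medians were −0.74, 2.19 and 2.35. GBP5, a guanylate-binding protein, had 0, 11701 and 14248 normalised counts in control, 81.6, 2300.4 and 740.2 with IL-1β and 2.03, 53717 and 16285 with IL1Ra, with differences of −4.77, 4.54 and 4.46. IFIT3 had differences of −2.41, 3.24 and 4.00 and MX1, an antiviral GTPase, of −0.30, 2.71 and 2.87. Only 2 of the 27 were higher in 3 of 3 lines (7.41% against 15.6% of all genes), and the lowest adjusted p of the list was 0.611 (limma).

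A set of 13 genes of antigen presentation was chosen after their values were seen. All 13 were higher with IL1Ra in lines 7 and 8, as were 30% of all genes. The count follows from the choice, so it is no separate evidence beside the interferon-stimulated genes. CIITA, the master activator of MHC class II genes, had 0, 1261 and 1784 normalised counts in control, 3.14, 12.9 and 16.8 with IL-1β and 0, 1804 and 873 with IL1Ra. CD74, the invariant chain, had 0, 19305 and 24092 in control, 5.84, 153 and 126 with IL-1β and 0, 40609 and 13401 with IL1Ra, and the class II chain DRA had 0, 8812 and 7872 in control, 4.06, 53.8 and 37.4 with IL-1β and 0, 13026 and 3395 with IL1Ra. Line 6 thus had next to none of these transcripts in any condition, while lines 7 and 8 had at least 873 normalised counts of each in control and with IL1Ra and at most 153 with IL-1β. The transcription factors IRF8 (0.88, 5.44 and 3.96 by line) and TBX21 (−0.040, 5.50 and 3.98) and B2M, the light chain of class I molecules (−0.92, 1.05 and 2.12), were higher in lines 7 and 8. IFNG, the gene of interferon-γ, was at 0 in line 6 and had 0, 13.6 and 10.8 with IL-1β and 0, 607 and 53.9 with IL1Ra. PTPRC stood at 0.993, 0 and 0 in control, 0, 5.67 and 6.46 with IL-1β and 0, 0.956 and 1.07 with IL1Ra in the same libraries, and CD3E, a chain of the T-cell receptor complex, did not exceed 1.07. Other leukocyte markers of the list were detected and differed between the lines. CD68, a macrophage marker, had 66.6, 216 and 287 in control, 181, 1769 and 665 with IL-1β and 115, 1378 and 726 with IL1Ra, and FCER1G, an Fc receptor chain, had 0, 3.79 and 6.88 in control, 1.01, 60.4 and 24.5 with IL-1β and 2.93, 78.5 and 17.1 with IL1Ra. ITGAX, an integrin chain of myeloid cells, had 45.7, 136 and 44.7 in control, 28.8, 123 and 96.5 with IL-1β and 18.1, 166 and 86.8 with IL1Ra. These 3 were higher in lines 7 and 8 than in line 6 with IL-1β and with IL1Ra, while CD14, a monocyte marker, had 1158, 1262 and 0 with IL-1β and 1482, 645 and 0 with IL1Ra. Their part in the pattern was not tested. IDO1, the interferon-inducible enzyme of tryptophan breakdown, had 0, 5188 and 845 with IL1Ra against 0, 174 and 63.4. Near-identical copies of the DQA and DQB chains are listed separately, so values of single class II genes are uncertain where reads were divided between them.

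**Figure D5:**
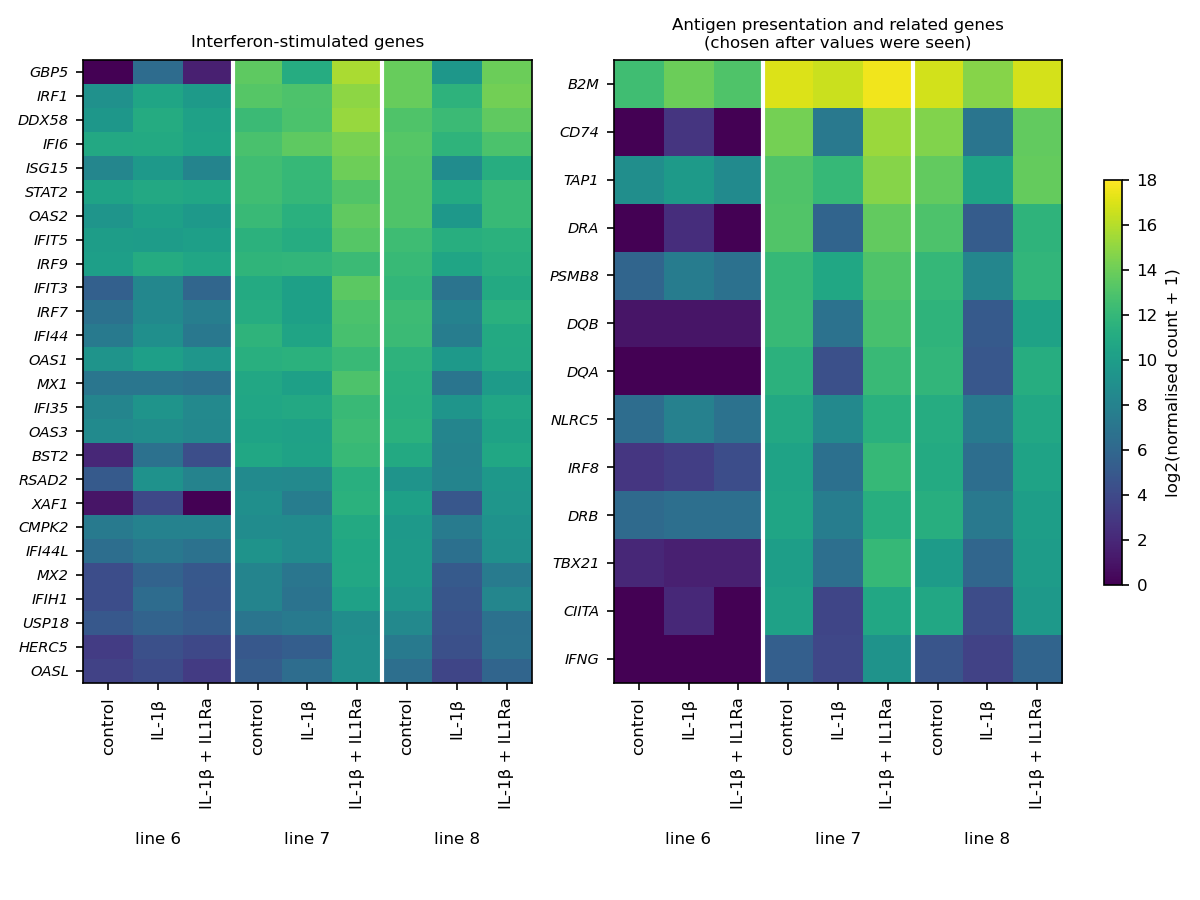
Levels as log2(normalised count + 1) of 26 of the 27 interferon-stimulated genes (left) and 13 genes of antigen presentation chosen after their values were seen (right), by library and grouped by line. In lines 7 and 8 the IL-1β column is darker, thus lower, than control and IL-1β + IL1Ra for most genes, and in line 6 the class II genes CD74, DRA, DQA and DQB are at or near 0.

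Of the 23 matrix metalloproteinases and inhibitors tested, 9 were lower in 3 of 3 lines (39.1% against 16.8% of all genes). Higher in 3 of 3 lines were 2 (8.7% against 15.6%). MMP3, stromelysin, had 174, 3785 and 9976 normalised counts in control, 110611, 68399 and 122147 with IL-1β and 8532, 14736 and 20009.9 with IL1Ra (−2.84, standard error 1.01), without overlap. MMP13, a collagenase, had 2009891, 36092 and 110085 with IL-1β and 292668, 8117 and 39639 with IL1Ra (−2.14, standard error 0.99), with line 6 far above the others in both conditions. MMP1, the interstitial collagenase, had 28.0, 67946 and 260673 in control, 48288, 396819 and 593974 with IL-1β and 2699.6, 105285 and 588952 with IL1Ra (−2.03, standard error 1.60), and in line 8 its levels with and without IL1Ra were nearly equal. MMP8 (−1.42) and MMP12 (−3.02) were also lower in 3 of 3 lines, and so was the membrane-bound MMP14 (−0.72). The inhibitor TIMP2 was lower too (−0.86), whereas MMP16 was higher (1.14). Among 12 ADAMTS proteases, 4 were higher in 3 of 3 lines (33.3% against 15.6% of all genes). Lower were 2 (16.7%), near the 16.8% of all genes. ADAMTS12 was at 0.90 (3858, 3003 and 2076 with IL-1β and 4176, 9020.0 and 4119 with IL1Ra normalised counts) and ADAMTS7 at −0.18.

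Proteoglycans and matrix glycoproteins leaned towards higher levels with IL1Ra. In 3 of 3 lines 15 of 44 were higher (34.1% against 15.6% of all genes) and 2 lower (4.55% against 16.8%). The median was 0.57, with line medians of 1.28, 0.25 and 0.23. TNC, the large matrix glycoprotein tenascin C, had 56084, 71309 and 39094 normalised counts in control, 13266, 7261 and 15121 with IL-1β and 38252, 24317 and 49157 with IL1Ra. The groups did not overlap, and the difference was 1.66 ± 0.40 (standard error) on the log2 scale, with an adjusted p of 0.285 (limma). ABI3BP, a matrix protein that binds collagen, had 3613, 5303 and 4886 in control, 384, 188 and 594 with IL-1β and 5280.1, 1164 and 2164 with IL1Ra (2.76, standard error 0.49, adjusted p = 0.190, limma), again without overlap. The study singled out ABI3BP on libraries that include these, so it is no independent evidence of the list's direction. THBS2, an anti-angiogenic thrombospondin, was higher in 3 of 3 lines with 2202, 5599 and 17791 with IL-1β and 18264, 9347 and 53350.2 with IL1Ra (1.79). In several genes the highest level was in line 6: COMP, a cartilage and tendon matrix protein, had 4497, 119 and 5.24 with IL-1β and 33101, 96.7 and 7.33 with IL1Ra, ACAN, the aggrecan core protein, 226, 0 and 13.1 with IL-1β and 5245, 16.2 and 18.2 with IL1Ra, and ASPN, a small leucine-rich proteoglycan, 2658, 2.32 and 5.49 with IL-1β and 27871, 8.65 and 19.6 with IL1Ra. In lines 7 and 8 these 3 genes stayed low. The small proteoglycan LUM had 45613, 38095 and 29061 normalised counts in control, 135681, 72490.0 and 123743 with IL-1β and 103605, 21076 and 74633 with IL1Ra (−0.97), lower with IL1Ra in 3 of 3 lines, while DCN was higher in line 6 and lower in lines 7 and 8 (0.27, −2.23 and −0.77). FN1, fibronectin, was at 0.19 and the collagen-binding SPARC at 0.14, and neither moved the same way in all lines.

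Of 24 collagen genes tested, 6 were higher (25% against 15.6% of all genes) and 1 lower (4.17% against 16.8%) in 3 of 3 lines. The fibril-forming chains COL1A1 (1.30, −1.26 and 0.19 by line) and COL1A2 (0.95, −0.76 and −0.063) were higher in line 6, lower in line 7 and near the IL-1β level in line 8. COL8A1, a short-chain collagen, had 3573, 1220.2 and 1928 with IL-1β and 4269.8, 4022 and 5254 with IL1Ra (1.14), and COL15A1, a basement membrane collagen, 4562, 13478 and 8624 with IL-1β and 9868, 21768 and 27826 with IL1Ra (1.16). Both were higher in 3 of 3 lines, and COL8A1 did so without overlap.

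Of 25 tendon and cartilage transcription factors, 10 were higher in 3 of 3 lines (40% against 15.6% of all genes). Lower were 3 (12% against 16.8%), and the median was 0.32. SOX9, the chondrogenic factor that is also active in tendon progenitors, had 1056, 746 and 376 normalised counts in control, 99.8, 154 and 34.2 with IL-1β and 563, 224 and 85.3 with IL1Ra (1.44, standard error 0.37). MKX, a homeobox factor of tendon, had 1024, 10.5 and 16.8 with IL-1β and 3062, 121 and 52.8 with IL1Ra (2.20, standard error 0.71), with most of its transcripts in line 6. SCX, with the levels given above, was at 0.53, with line differences of 2.45, −0.51 and −0.35, so it was higher in line 6 only. SOX5 was lower without overlap, with 603, 356 and 695 with IL-1β and 152, 233 and 240.3 with IL1Ra (−1.37). The mesenchymal factors PRRX1 (0.35) and PRRX2 (−0.20) had the highest counts of the list.

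Growth factors and their receptors held FGF10. In 3 of 3 lines 14 of 33 were higher (42.4% against 15.6% of all genes) and 4 lower (12.1% against 16.8%). FGF2, like FGF10 a fibroblast growth factor, had 148, 905 and 2681 normalised counts in control, 122, 133 and 200.1 with IL-1β and 116, 999 and 1424 with IL1Ra, so it was higher in lines 7 and 8 and not in line 6 (−0.073, 2.90 and 2.82). GHR, the growth hormone receptor, had 177, 142 and 156 with IL-1β and 453, 528 and 269 with IL1Ra (1.34), and PDGFD, a platelet-derived growth factor, 434, 501 and 104 with IL-1β and 1259.8, 2622 and 683 with IL1Ra (2.21), both without overlap. FGF7 was at 0.70 and the binding protein IGFBP4 at 1.44. IGFBP3 had 866, 39759 and 45312 with IL-1β and 75.7, 4400.4 and 8849.6 with IL1Ra (−3.01) and the EGF receptor ligand EREG 402, 12239.7 and 8577 with IL-1β and 22.9, 3967 and 2036 with IL1Ra (−2.59). Both were lower in 3 of 3 lines.

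In TGF-β and BMP signalling 8 of 43 genes were higher (18.6% against 15.6% of all genes) and 11 lower (25.6% against 16.8%) in 3 of 3 lines, with a median of −0.070. INHBB, which encodes the βB chain of activins, had 16.5, 114 and 192 with IL-1β and 54.1, 677 and 1166 with IL1Ra (2.27, standard error 0.28, adjusted p = 0.124, limma). CHRD, the BMP antagonist chordin, had 211, 13.2 and 6.31 with IL-1β and 310.4, 149.9 and 45.6 with IL1Ra (2.21). The ligand TGFB2 had 1453, 942 and 1044 with IL-1β and 831, 252 and 498 with IL1Ra (−1.26), and BAMBI, a decoy receptor, 164, 219 and 394 with IL-1β and 51.0, 45.4 and 38.8 with IL1Ra (−2.41), both lower without overlap. The target genes ID1 (−1.30) and ID3 (−0.44) were lower in 3 of 3 lines, whereas ID2 was at 0.00052. Among 20 Wnt genes, 3 were higher (15%) and 4 lower (20%) in 3 of 3 lines, near the shares of all genes (15.6% and 16.8%). The secreted antagonist SFRP2 had 1285, 148 and 59.6 in control, 71.4, 33.1 and 8.53 with IL-1β and 2106, 121 and 78.5 with IL1Ra (3.25, standard error 0.52), without overlap, and SFRP1 was at 1.40. The transcription factor TCF7 had 3259.9, 2492 and 2425 with IL-1β and 796, 1388 and 1224 with IL1Ra (−1.29), the ligand WNT9A was at −1.23, and DKK3 was at 0.13.

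Nucleotide pyrophosphatases, which cleave extracellular nucleotides, and purine receptors had 11 of 22 members higher in 3 of 3 lines (50%). Lower were 5 (22.7%), and the shares of all genes were 15.6% and 16.8%. ENPP1, which makes pyrophosphate from ATP, had 3419, 2729 and 1011 normalised counts in control, 536, 223 and 245 with IL-1β and 2744, 1418 and 1344 with IL1Ra. All values with IL1Ra exceeded all with IL-1β, by 2.49 ± 0.29 (standard error) on the log2 scale, with an adjusted p of 0.0978 (limma). ENPP5 had 461, 117 and 199 in control, 62.2, 54.2 and 62.7 with IL-1β and 409, 240.2 and 175 with IL1Ra (2.10, standard error 0.38), and ENPP4 77.4, 25.3 and 25.1 with IL-1β and 280.5, 249 and 65.0 with IL1Ra (2.15). ENPP2, the lysophospholipase autotaxin, went the other way with 179, 14.5 and 476 with IL-1β and 14.1, 7.03 and 22.2 with IL1Ra (−2.96, standard error 0.96). It was low in line 7 in both conditions. The ATP-gated channel P2RX7 had 82.0, 83.7 and 78.5 with IL-1β and 324, 757 and 399 with IL1Ra (2.49), and NT5E, which makes adenosine from AMP, 3349.5, 2509 and 3016 with IL-1β and 10067, 8348 and 7189.6 with IL1Ra (1.52), both without overlap. ALPL, tissue-nonspecific alkaline phosphatase, was lower in 3 of 3 lines with 1877, 61635 and 63685 with IL-1β and 582, 37974 and 50092 with IL1Ra (−0.91). ENPP1, ENPP2 and ENPP5 were singled out by the study on libraries that include these, so they are no independent evidence of the list's direction.

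Cholesterol and fatty acid synthesis was the list with the most members lower in 3 of 3 lines, 16 of 23 (69.6% against 16.8% of all genes), with 0 higher, a median of −0.60 and line medians of −0.88, −0.81 and −0.28. Its median for IL-1β against control was 0.93 and for IL-1β + IL1Ra against control 0.28, in comparisons that share libraries. Yet the library with IL1Ra lay between the other conditions in 3 of 3 lines in only 1 of the 23 genes, against 10.8% of all genes. HMGCS1, which starts the mevalonate pathway, had 2737, 4309 and 2617 normalised counts in control, 6383, 7029.7 and 10373 with IL-1β and 1949.8, 4187 and 8166 with IL1Ra (−0.93, standard error 0.39). The widest gap was in line 6 and the narrowest in line 8. FDPS (−1.27), LSS (−0.94) and SQLE (−0.81), which act later in the pathway, and the fatty acid synthase FASN (−0.65) were lower in 3 of 3 lines. SCD, a fatty acid desaturase, had 7914, 16193 and 35149 with IL-1β and 2233, 8192 and 30338 with IL1Ra (−1.01). INSIG1, a brake on sterol synthesis, was not among the lower ones, with 4576, 4403 and 5362 with IL-1β and 3674, 5537 and 6920.4 with IL1Ra (0.13). The lowest adjusted p of the list was 0.313 (limma). In 3 of its 23 members all libraries with IL1Ra lay below all with IL-1β, against 3.35% of all genes.

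The 45 genes of actomyosin contraction and adhesion had a median of 0.0048 over lines that differed in sign, with line medians of 0.27, −0.38 and 0.18 and a range of −0.25 to 0.25 without 1 line. Of these genes 4 were higher (8.89% against 15.6% of all genes) and 3 lower (6.67% against 16.8%) in 3 of 3 lines. Both shares were below those of all genes. The 2 most abundant members ACTG1 (−0.39) and ACTB (−0.38) were lower in line 7 and within 0.20 of the IL-1β level elsewhere. ITGA11, a collagen-binding integrin chain, had 17117, 2787 and 1462 normalised counts in control, 467, 12.8 and 86.6 with IL-1β and 10601, 34.7 and 351 with IL1Ra (2.63). Genes of mitosis and DNA replication had line medians of 0.27, −1.17 and 0.64. In 3 of 3 lines 0 of 38 were higher (against 15.6% of all genes) and 1 was lower (2.63% against 16.8%). The proliferation marker MKI67 had 1994, 1242 and 1251 in control, 67.4, 713 and 271 with IL-1β and 73.8, 405 and 455 with IL1Ra, and MCM6 and MCM7 of the replicative helicase were at −0.11 and −0.017. MKI67 stayed below control in each line with IL1Ra, and the list median of IL-1β + IL1Ra against control was −2.08.

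For glycolysis and the hypoxia response 9 of 29 genes were higher in 3 of 3 lines (31% against 15.6% of all genes). Lower were 3 (10.3% against 16.8%), and the median was 0.13. NDRG1, a hypoxia-responsive gene, had 8818, 3852 and 7214 with IL-1β and 33199, 24316 and 16884 with IL1Ra (1.93), while the glycolytic enzymes GAPDH (−0.22) and ENO1 (0.11) differed little. The 33 genes of the unfolded protein response and secretory chaperones had 6 members higher (18.2%) and 4 lower (12.1%) in 3 of 3 lines. These shares were near those of all genes (15.6% and 16.8%). The list median was 0.044, with the chaperones CALR at −0.0023 and SERPINH1 at −0.049. Of 12 adhesion molecules 5 were higher in 3 of 3 lines (41.7% against 15.6% of all genes). Lower were 2 (16.7%), near the 16.8% of all genes. The gap junction protein GJA1 was at 0.43, the hyaluronan receptor CD44 at 0.72, and CDH11, a fibroblast cadherin, had 6052, 3789 and 8310.0 with IL-1β and 12681, 10066 and 15084 with IL1Ra (1.11). SELE, a selectin of activated endothelium, was lower without overlap (29.9, 25.0 and 21.6 with IL-1β and 11.6, 5.77 and 2.15 with IL1Ra, −2.02). VCAM1, which binds leukocyte integrins, had 3301, 12379 and 26388 with IL-1β and 1976, 24269 and 31034 with IL1Ra (−0.74, 0.97 and 0.23 by line).

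Line 6 and the pair of lines 7 and 8 differed in many of these genes. A log2 difference of at least 1 in size was seen in 13.9% of genes in line 6, 22.9% in line 7 and 11.7% in line 8. In line 6 IL6, PTGS2 and NOS2 were far below their IL-1β levels with IL1Ra and the median of the interferon-stimulated genes was negative, whereas in lines 7 and 8 these 3 genes stayed near or above their IL-1β levels and every interferon-stimulated gene of the list was higher. Without line 6, 100 genes (0.599%) were DE, 80 higher (0.479%) and 20 lower (0.12%), and of these 100 the difference in line 6 had the same sign in 48. They included, with adjusted p under 0.05, the class II genes CIITA, CD74 and DRA and CXCL10 on the higher side, and CXCL8, CXCL2, MMP3, IL1A and TNFAIP3 on the lower side. Without line 7 or without line 8 no gene was DE, with 903 and 659 genes at an unadjusted p under 0.05 (limma). The difference between line 6 and the other lines was not tested, since line 6 is a single donor line.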

How the data were processed

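RNA from tenocytes in collagen gels was sequenced from poly(A)-selected stranded libraries. The deposited signal values are normalised gene counts: the authors quantified reads against the horse transcriptome (EquCab3) with Salmon and normalised the estimated gene counts with DESeq2 1.36 in R 4.2.1, separately for each batch. They are no whole reads (54% to 73.8% of low values came out whole within a tolerance of 0.05), so a count test was not run. The study gives read depth as a range over its samples, and the depth of each library was not taken from the values.

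Here log2(normalised count + 1) of the genes that reached 10 normalised counts in 3 or more of the 9 libraries was fitted with limma 3.58.1 in R 4.3.3. Condition and line were fixed terms, with a mean-dependent prior. The fit was tried on simulated data with large changes that were equal in every line. That trial does not bear on smaller or uneven changes. Lines 1 to 5 were fitted alike, with the filter met in 5 or more libraries. Same-line libraries deviated together (r = 0.54 to 0.79 in 9 pairs, against −0.62 to 0.25 in 18 pairs of different lines), and line names in the table give the pairing. The gene names are those of the table, of which 80.1% matched a RefSeq symbol, and 25 had been turned into dates. Reads of near-identical genes could be divided between copies.

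The genes described and the 23 lists were chosen with earlier results of these data known. The rule named DE genes, the 2 most abundant members of each list and a set of genes of the IL-1β response. Every other gene named was chosen after its values were seen. The study had also reported MMP3, MMP8, MMP13, CSF3, IL6, IL1B, TNC and SOX9 from libraries that include these. Those genes are no independent evidence of the direction of their lists. Alternatives were no block, 6 libraries only, other pseudocounts, filters and scalings, no trend, and leaving out each line. A few list members are counted in the lists but not reported here by name.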

Additional observations from a re-analysis of the deposited data

How the results depend on the processing

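The fit had 3 lines, 1 library per line and condition, and 4 residual degrees of freedom. Large differences that were unequal between lines did not pass the test. Some that changed little when 1 line was left out also missed it, such as TNC (1.614 to 1.722) and ENPP1 (2.402 to 2.555). A difference that missed the test is not shown to be absent. An exact sign-flip test over 3 lines cannot go below p = 0.25. The deposited values hold no read counts, so no counting error is given.

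The number of DE genes, 1 as fitted, was 0 with no replicate block, in the 6 libraries alone, with equal sums, after quantile normalisation and without the trend, and 2 with a pseudocount of 5, of which 1 was lower. Without the pairing by line 464 genes had an unadjusted p under 0.05, and the smallest adjusted p was 0.363 (limma). The count was 1 with a pseudocount of 0.5, with no filter and with a filter of 50 normalised counts. Leaving out a line gave 0 to 100 DE genes, 0 to 80 higher and 0 to 20 lower, with the highest counts without line 6. Equal sums shifted the median over all genes from 0.0088 to 0.11.

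The medians over genes changed by IL-1β in lines 1 to 5 kept their sign under all alternatives tried, from −0.64 to −0.35 without 1 line for those higher with IL-1β and 0.24 to 0.72 for those lower. Of the list medians, NF-κB moved to −0.20, TGF-β and BMP to 0.032, nucleotide enzymes to 0.33, glycolysis to 0.23 and adhesion to 0.54 with equal sums. Without a filter the acute-phase list moved to −0.12, ADAMTS to 0, nucleotide enzymes to 0.12, Wnt to 0.24 and adhesion to 0.31, and a filter of 50 moved ADAMTS to 0.58 and adhesion to 0.63. Quantile normalisation moved nucleotide enzymes to 0.12 and adhesion to 0.31. Without 1 line the medians ranged from −0.40 to −0.32 for NF-κB, 0.33 to 1.15 for the acute-phase list, 0.26 to 0.50 for ADAMTS, −0.20 to 0.018 for TGF-β and BMP, 0.11 to 0.37 for nucleotide enzymes, −0.38 to −0.071 for nitric oxide and antioxidant enzymes and 0.091 to 0.13 for glycolysis. The range included both signs for the IL-1 family (−0.12 to 0.15), chemokines (−0.24 to 0.77), the IL-6 family (−0.41 to 0.13), actomyosin (−0.25 to 0.25) and mitosis (−0.44 to 0.48). It was 0.57 to 2.21 for interferon-stimulated genes, 0.074 to 0.59 for collagens, 0.22 to 0.73 for proteoglycans, −0.60 to −0.26 for metalloproteinases, −0.22 to −0.013 for prostaglandins, 0.18 to 0.36 for transcription factors, −0.10 to −0.033 for Wnt and 0.012 to 0.11 for the unfolded protein response.

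The log2-fold change reversed with equal sums for PTGES (0.039), SERPINH1 (0.052), CALR (0.10), MCM7 (0.084) and RELA (0.045), and with quantile normalisation for GAPDH (0.11), MCM7 (0.034), MKI67 (−0.010) and MMP2 (0.012). The cause was not tested. Without 1 line it changed sign in the following genes, with ranges of −0.17 to 0.24 for IL1R1, −1.91 to 0.18 for IL6, −0.43 to 1.05 for SCX, −1.09 to 5.35 for CXCL9, −0.41 to 0.45 for COL1A2, −0.54 to 0.75 for COL1A1, −0.13 to 0.46 for FN1, −0.19 to 0.52 for SPARC, −0.62 to 0.015 for ACTB, −0.0078 to 0.25 for ENO1, −2.82 to 0.47 for PTGS2, −0.22 to 0.076 for PTGES, −0.16 to 4.50 for GBP5, −0.38 to 0.27 for SERPINH1, −0.063 to 0.093 for CALR and −0.53 to 0.053 for PRRX2. It ranged from −0.70 to 0.97 for BIRC3, −0.074 to 0.48 for DKK3, −0.38 to 0.15 for ADAMTS7, −0.17 to 0.28 for MCM7, −0.36 to 0.32 for MCM6, −0.13 to 0.035 for RELA, −1.05 to 4.43 for CXCL10, −0.89 to 0.070 for CCL2, −1.71 to 1.34 for NOS2, −0.34 to 0.44 for MKI67, −0.0017 to 0.79 for TOP2A, −0.25 to 0.60 for VCAM1, −1.32 to 0.93 for CCL5, −0.42 to 0.10 for MMP2 and −0.27 to 0.19 for ID2.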
